A study of Mus musculus with 8 samples.

Results

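Calcium that enters a neuron is pumped out across the plasma membrane, exchanged for sodium or taken up into stores, and it is released again from the endoplasmic reticulum. The genes described here are the 10 that encode the plasma membrane calcium ATPases, or PMCA pumps (Atp2b1, Atp2b2, Atp2b3 and Atp2b4), the sodium/calcium exchangers of the NCX type (Slc8a1, Slc8a2 and Slc8a3) and the ryanodine receptors (Ryr1, Ryr2 and Ryr3). They were chosen by family membership, with earlier results of these data known, and all 10 were found by symbol among the 38553 genes of the deposited table. Their levels were compared along the dorsoventral axis of the medial entorhinal cortex (MEC), the area in which the firing fields of grid cells widen from dorsal to ventral.

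PMCA pumps bind calcium with high affinity, move it slowly and are switched on by calmodulin, whereas NCX exchangers have a low affinity and a high turnover, so that the pumps set the resting calcium level and the exchangers carry much of the load after strong activity. Ryanodine receptors are calcium release channels of the endoplasmic reticulum that open when calcium rises in the cytosol. Ryr1 is the receptor of skeletal muscle, Ryr2 that of the heart and the main one of the brain, and Ryr3 is found in the brain at particular sites, the hippocampus among them.

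RNA-Seq was made from 13 male C57BL/6JolaHsd mice aged 8 weeks that had received no treatment. A sagittal slice of 400 µm through the right MEC was taken from each mouse, and dorsal and ventral MEC were cut out under a microscope. There were 4 groups of mice, and tissue from the 3 or 4 mice in each was pooled by region, giving 4 dorsal and 4 ventral libraries, each of which stands for several mice and for every cell type of the tissue. In such bulk RNA, fewer cells of a type and less RNA per cell cannot be told apart.

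The libraries held between 10780902 and 15359782 assigned fragments, and they go here by the headings of their columns. The 4 columns headed D1, V1, D2 and V2 were taken as dorsal and those headed D3, V3, D4 and V4 as ventral, because their means equal the dorsal and the ventral FPKM listed by the authors (1327 of 1327 genes compared, within 0.1%, against 7 with the regions exchanged). The headings V1, V2, D3 and D4 thus name the other region, and the assignment rests on this match and not on the headings. With the regions as headed, limma called 0 of the 9 members tested, 0 of which had an unadjusted p under 0.05, and only 1 gene of the whole table, so that every regional difference below depends on the assignment.

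FPKM is a fragment number corrected for transcript length and for library depth, and for each gene it is Cuffdiff's estimate summed over the gene's transcripts. As a level per length it lets the members be ranked against each other. The ranks, and the shares and ratios between members, depend on how fragments were assigned to transcripts of different length, which was not examined. In dorsal MEC, the most abundant members were Atp2b1 (mean 119 FPKM) and Atp2b2 (119 FPKM), whose ranges overlapped and of which Atp2b1 was the higher in 2 of 4 libraries. Atp2b4 (61.5 FPKM) and Atp2b3 (37.3 FPKM) followed, each separated from its neighbours in every library. Below the pumps came Ryr2 (25.5 FPKM) and Slc8a1 (24.2 FPKM), whose ranges overlapped, and then Slc8a2 (10.2 FPKM) and Ryr3 (10.03 FPKM), whose ranges overlapped too. Slc8a3 stood at 6.23 FPKM and Ryr1, with 0.192 FPKM, was last.

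In ventral MEC the order of the means differed at 2 places, in that Slc8a1 passed Ryr2 and Ryr3 passed Slc8a2. Atp2b1 (105 FPKM) stood clear of Atp2b2 (88.2 FPKM), while Atp2b2 and Atp2b4 (82.3 FPKM) overlapped in range. Slc8a1 (25.9 FPKM) was above Ryr2 (21.9 FPKM) in every library, with overlapping ranges, and Ryr3 (16.3 FPKM) overlapped with Ryr2 and was above Slc8a2 (10.7 FPKM) without overlap. The 4 pumps were the most abundant of the 10 members in both regions.

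**Figure D1:**
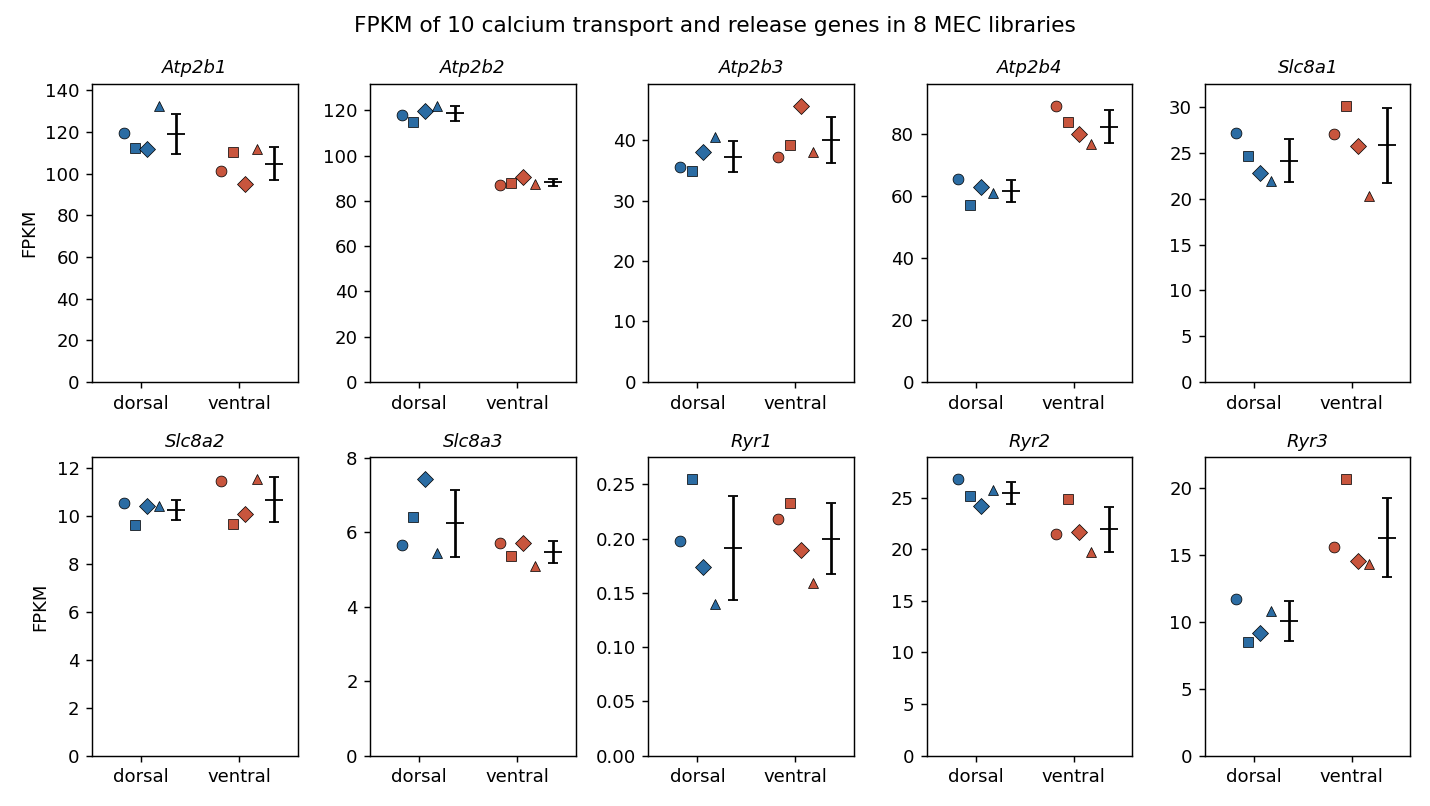
FPKM (vertical axis, linear from 0, with its own scale in each panel) of the 10 genes in the 4 dorsal (blue) and the 4 ventral (red) libraries. Circle, square, diamond and triangle stand for D1, V1, D2 and V2 in dorsal and for D3, V3, D4 and V4 in ventral MEC, and black bars give the mean and SD (n = 4). The regions do not overlap for Atp2b2, Atp2b4 and Ryr3.

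Which of these genes differ between dorsal and ventral MEC was tested with limma on log2(FPKM + 1) over 13674 genes, and a gene was called at an adjusted p under 0.05 and a difference in mean FPKM of more than 20%. The test took in 9 members, those that had enough alignments and averaged FPKM 1 or more, and 3 were called. Atp2b2 was higher in dorsal MEC (1 D>V member), and Atp2b4 and Ryr3 were higher in ventral MEC (2 V>D members). Of all genes tested, 3.6% were called, 2.15% as D>V and 1.45% as V>D. The libraries of the regions did not overlap in FPKM for the same 3 members, against 11.1% of all genes tested. None of the NCX exchangers was called. An unadjusted p under 0.05 was reached by 5 members, the 3 called genes, Atp2b1 and Ryr2, and by 2191 of the 13674 genes tested. After rescaling the libraries to one total, or without the dorsal library D1, 3 members reached it. Over all genes tested, 1900 did so after rescaling and 1914 without D1.

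Atp2b2 encodes PMCA2, a pump that activates fast, known for high levels in cerebellar Purkinje cells and in the hair bundles of the inner ear. Its dorsal level was 118 FPKM in D1, 115 in V1, 119.8 in D2 and 122 in V2. Its ventral level was 87.0 FPKM in D3, 88.0 in V3, 90.4 in D4 and 87.6 in V4. The lowest dorsal library thus lay well above the highest ventral one, and the spread within either region, a coefficient of variation of 2.63% in dorsal and 1.69% in ventral MEC, was the smallest of the 10 members. The means were 119 ± 3.12 FPKM in dorsal and 88.2 ± 1.49 FPKM in ventral MEC (SD, n = 4 each), which is 1.34-fold higher in dorsal MEC. The fold change of the limma fit was -0.42 on the log2 scale (SE 0.05, 95% interval -0.54 to -0.31, adjusted p = 0.0022), and the exact two-sided permutation test over libraries gave p = 0.0286, the smallest that 4 against 4 libraries allow. At least 7704 fragments stood behind each library's value, a counting error of 1.14% or less.

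Atp2b4 encodes PMCA4, which is found in many tissues and, in the brain, in neurons of several areas. In dorsal MEC it stood at 65.6 FPKM in D1, 57.0 in V1, 62.8 in D2 and 60.8 in V2. In ventral MEC it stood at 89.0 FPKM in D3, 83.7 in V3, 79.8 in D4 and 76.7 in V4. Again the regions did not overlap, and here the ventral libraries were the higher ones. The means of 61.5 ± 3.60 and 82.3 ± 5.32 FPKM (SD, n = 4 each) differed 1.34-fold, with a limma fold change of 0.41 on the log2 scale (SE 0.07, 95% interval 0.26 to 0.57, adjusted p = 0.00964). The exact permutation test gave p = 0.0286 here as well.

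The sequences before the annotated starts of these pumps are shown because Atp2b2 and Atp2b4 are the family members that differed between the regions, in opposite directions. RefSeq (GRCm38.p6) lists promoters for 8 of the 10 members. The windows below hold the 250 bases before a start, on the minus strand of each chromosome and read 5′ to 3′, with CG dinucleotides in capitals. That of Atp2b2 is chr6:114042081-114042330, before the outermost of its 3 listed starts, and that of Atp2b4 is chr1:133753748-133753997.
Atp2b2: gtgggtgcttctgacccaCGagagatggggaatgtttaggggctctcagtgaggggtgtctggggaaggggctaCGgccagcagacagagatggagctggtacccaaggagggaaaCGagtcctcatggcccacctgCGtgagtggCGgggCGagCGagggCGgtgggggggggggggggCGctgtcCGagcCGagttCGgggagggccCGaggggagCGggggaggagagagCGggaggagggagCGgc
Atp2b4: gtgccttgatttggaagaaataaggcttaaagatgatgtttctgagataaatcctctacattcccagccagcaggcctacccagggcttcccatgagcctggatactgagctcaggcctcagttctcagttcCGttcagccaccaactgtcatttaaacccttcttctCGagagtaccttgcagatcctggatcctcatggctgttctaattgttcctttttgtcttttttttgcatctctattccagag
The Atp2b2 window held 16 CG dinucleotides and 69.6% G and C, and 76.5% of the 32851 promoters listed held as many CG dinucleotides or fewer. The Atp2b4 window held 2 CG dinucleotides and 45.6% G and C, and 29.0% of the promoters listed held as many or fewer. The GC box GGGCGG, searched on both strands, occurred in the Atp2b2 window and not in that of Atp2b4, against 32.7% of all promoters listed. This contrast depends on the start chosen. The windows before the other two starts of Atp2b2 held 6 CG dinucleotides each (53.7% of the promoters listed held as many or fewer), and in one of them the GC box did not occur.

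Both windows lie within longer transcripts of their own gene in GENCODE M21. Of the Atp2b2 window, 138 bases fall in the first exon of a longer noncoding transcript of Atp2b2. No GENCODE M21 transcript of Atp2b2 starts at the end of the window printed. At the ends of its other windows, with 6 CG dinucleotides each, 2 and 1 transcripts start, and 2 start at the end of the Atp2b4 window. The Atp2b4 window is intronic in the longest transcript except for 2 bases, and its end meets an exon that this transcript uses as an internal one. FPKM per gene do not tell which start was used, and these matches describe the letters of the windows only.

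Atp2b1 encodes PMCA1, the pump found in nearly all cells. Its levels were 119 FPKM in D1, 112 in V1, 112 in D2 and 133 in V2, against 101 in D3, 110.4 in V3, 95.1 in D4 and 112 in V4. The regions overlapped through the highest ventral library, V4. Its means were 119 ± 9.68 FPKM in dorsal and 105 ± 7.92 FPKM in ventral MEC (SD, n = 4 each), and it was not called (limma fold change -0.18, SE 0.08, 95% interval -0.36 to -0.01, adjusted p = 0.288). The exact permutation test gave p = 0.0571.

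Atp2b3, whose product PMCA3 is largely restricted to neurons, lay between 34.9 and 40.6 FPKM in the dorsal and between 37.2 and 45.7 FPKM in the ventral libraries. The regions overlapped and the gene was not called (limma fold change 0.10, 95% interval -0.08 to 0.28, adjusted p = 0.623), so that the interval leaves room for a 20% difference in the ventral direction only.

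The summed FPKM of the 4 pumps overlapped between the regions, with 319 to 356 FPKM in dorsal and 311 to 321 FPKM in ventral libraries. The make-up of this sum differed. Atp2b2 held between 34.3% and 36.1% of it in dorsal and between 27.4% and 29.1% in ventral libraries, and Atp2b4 held between 17.1% and 19.4% in dorsal and between 24.4% and 28.3% in ventral libraries. The ratio of Atp2b2 to Atp2b4 lay between 1.801 and 2.01 in dorsal and between 0.978 and 1.14 in ventral libraries. Since both genes separate the regions, in opposite directions, their ratio had to do so too and adds no further support. Atp2b3, which was not called, held between 10.5% and 11.4% in dorsal and between 11.8% and 14.7% in ventral libraries, also without overlap. Atp2b1 held between 30.6% and 37.2% in all libraries. These shares are sums over members chosen with results known and were given no test.

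**Figure D2:**
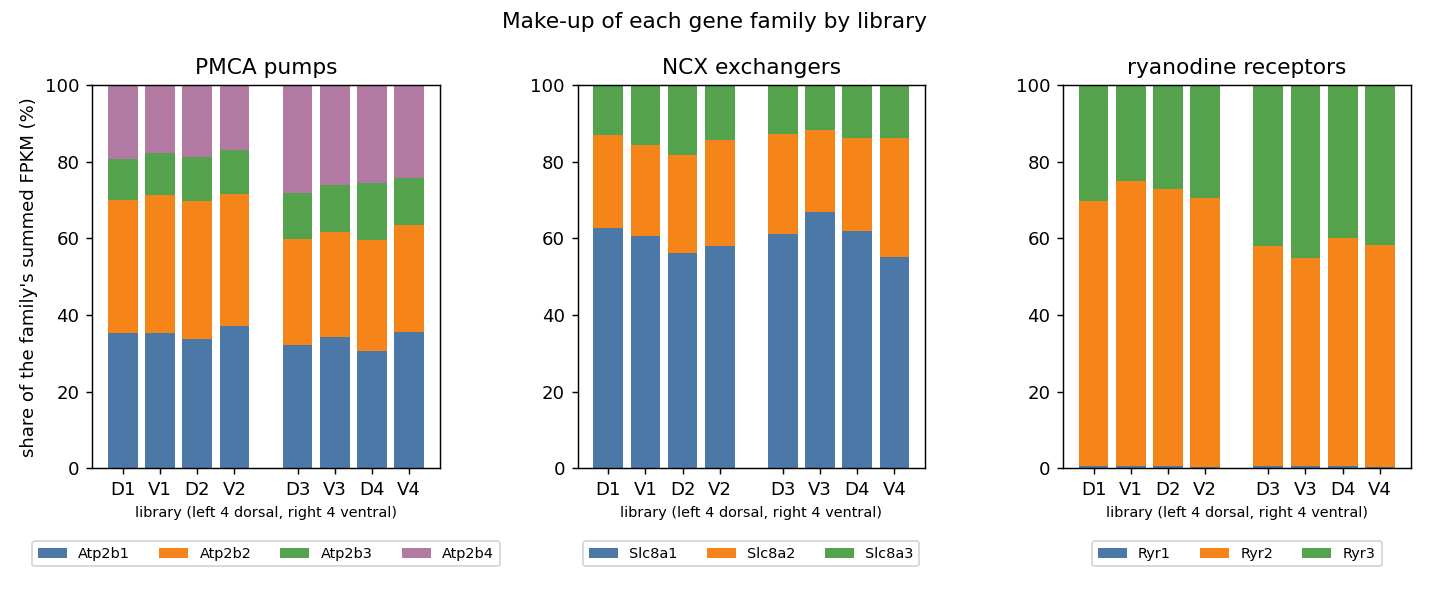
Share of each member (vertical axis, % of the family's summed FPKM) in each of the 4 dorsal (left bars) and 4 ventral (right bars) libraries, for the PMCA pumps, the NCX exchangers and the ryanodine receptors. Atp2b4 holds 17.1% to 19.4% of the pumps in dorsal and 24.4% to 28.3% in ventral libraries, and Ryr3 holds 25.0% to 30.3% of the receptors in dorsal and 40.0% to 45.1% in ventral libraries.

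Ryr3 had the largest fold change of the members. In dorsal MEC it stood at 11.7 FPKM in D1, 8.48 in V1, 9.14 in D2 and 10.8 in V2. In ventral MEC it stood at 15.6 FPKM in D3, 20.6 in V3, 14.5 in D4 and 14.3 in V4. Every ventral library was above every dorsal one, and V3 stood highest. The means of 10.03 ± 1.48 and 16.3 ± 2.96 FPKM (SD, n = 4 each) differed 1.62-fold, with a limma fold change of 0.64 on the log2 scale (SE 0.13, 95% interval 0.36 to 0.93, adjusted p = 0.0222). The exact permutation test gave p = 0.0286. Only 2.93% of all genes tested had a log2 ratio of this size or larger in either direction.

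The call of Ryr3 was not kept in all 8 fits that left out 1 library. It was lost without the dorsal library V1 (adjusted p = 0.0738 in limma), without the dorsal library D2 (adjusted p = 0.0656) and without the ventral library D3 (adjusted p = 0.0618), while the fold change stayed between 0.53 and 0.71 without any 1 library. Over all genes, limma called 91, 123 and 91 as V>D in the fits without V1, D2 and D3, against 198 with every library. In the other 5 fits it called 121 to 191. Atp2b2 and Atp2b4 were called without any 1 of the 8 libraries. The 916 exonic bases that Ryr3 shares with Aven, a gene on the opposite strand that encodes an inhibitor of cell death, are a second limit, since the authors' counting is not stated to use strand and the reads of the overlap cannot be told apart. Aven had 1.16 ± 0.334 FPKM in dorsal and 0.990 ± 0.359 FPKM in ventral MEC (SD, n = 4 each) and was not called (adjusted p = 0.784 in limma). It received between 45 and 84 fragments per library, against 1131 to 2157 for Ryr3.

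Ryr2 stood at 26.8 FPKM in D1, 25.2 in V1, 24.2 in D2 and 25.8 in V2, against 21.4 in D3, 24.9 in V3, 21.6 in D4 and 19.7 in V4. A single ventral library, V3, reached into the dorsal range. The means were 25.5 ± 1.07 FPKM in dorsal and 21.9 ± 2.17 FPKM in ventral MEC (SD, n = 4 each), and the gene was not called (limma fold change -0.21, SE 0.08, 95% interval -0.38 to -0.04, adjusted p = 0.186). The exact permutation test gave p = 0.0571.

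The summed FPKM of the ryanodine receptors overlapped between the regions (33.5 to 38.7 FPKM in dorsal and 34.1 to 45.7 FPKM in ventral libraries). The ratio of Ryr2 to Ryr3 lay between 2.29 and 2.97 in dorsal and between 1.21 and 1.49 in ventral libraries, without overlap, and Ryr3 held between 25.0% and 30.3% of the sum in dorsal and between 40.0% and 45.1% in ventral libraries. Whether the regional differences of Ryr2 and Ryr3 themselves differ was not tested. Both genes are transcribed from long loci, with a span of 553844 bases for Ryr2 on chromosome 13 and of 585742 bases for Ryr3 on chromosome 2.

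Ryr1 was barely detected. Its levels lay between 0.140 and 0.255 FPKM in dorsal and between 0.159 and 0.233 FPKM in ventral libraries, on 31 to 75 fragments per library, and the authors marked it as having too few alignments to be tested. At that depth the counting error of the lowest library is 18.0%, so that a difference of 20% between the regions could not be seen in single libraries. The exact permutation test gave p = 0.83.

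Among the exchangers, Slc8a1, the NCX1 gene that is also the exchanger of the heart, stood at 27.2 FPKM in D1, 24.7 in V1, 22.8 in D2 and 21.97 in V2, against 27.1 in D3, 30.2 in V3, 25.8 in D4 and 20.4 in V4. Both the highest and the lowest library were ventral, and the gene was not called (limma fold change 0.08, 95% interval -0.17 to 0.34, adjusted p = 0.787). Slc8a2, the NCX2 gene expressed mainly in brain, lay between 9.61 and 10.5 FPKM in dorsal and between 9.68 and 11.5 FPKM in ventral libraries (limma fold change 0.05, 95% interval -0.11 to 0.22, adjusted p = 0.796). Its interval holds no difference of 20% in either direction, while that of Slc8a1 does in the ventral direction.

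Slc8a3, the NCX3 gene of brain and skeletal muscle, lay between 5.45 and 7.41 FPKM in dorsal and between 5.10 and 5.72 FPKM in ventral libraries. The dorsal spread was the wider one, with D2 the highest, and the gene was not called (limma fold change -0.15, 95% interval -0.36 to 0.06, adjusted p = 0.488). The share of each exchanger in the summed FPKM overlapped between the regions, with Slc8a1 between 55.1% and 66.7% over the 8 libraries.

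**Figure D3:**
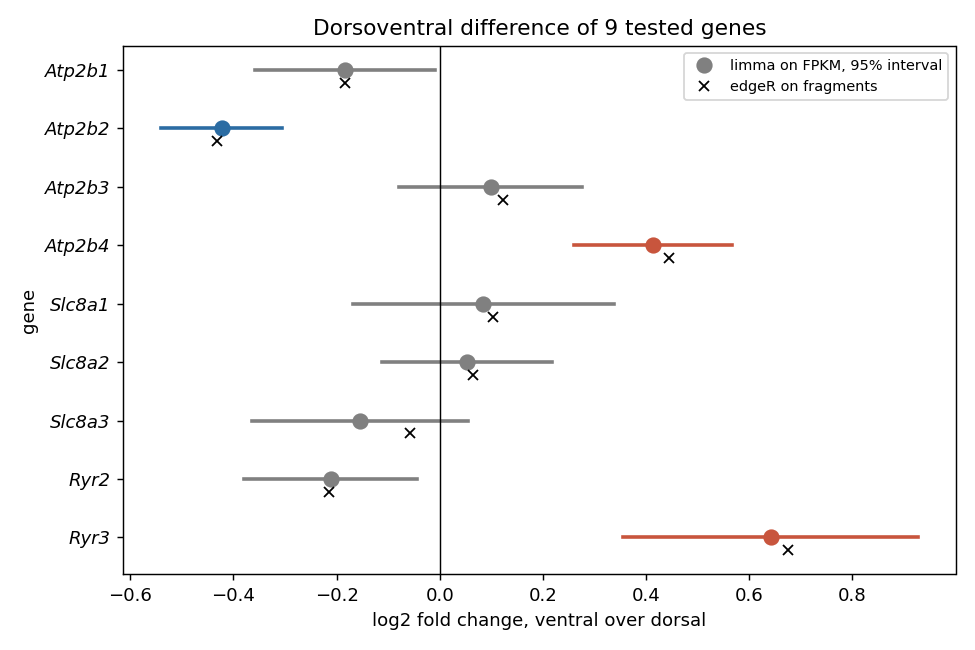
Fold change of ventral over dorsal MEC (horizontal axis, log2 scale) for the 9 members tested, from limma on FPKM with its 95% interval (filled circles and lines, coloured for the 3 genes called, blue for higher in dorsal and red for higher in ventral MEC) and from edgeR on fragment numbers (crosses). The intervals of Atp2b2, Atp2b4 and Ryr3 are farthest from 0, and the estimates of both tests lie close together except for Slc8a3, at -0.15 and -0.06.

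The fragment numbers that underlie the FPKM gave the same 3 calls. In the tests on fragment numbers, the 20% limit was still applied to the mean FPKM of the regions. With edgeR's quasi-likelihood test, which tested all 10 members, the fold changes were -0.43 for Atp2b2 (adjusted p = 0.000107), 0.44 for Atp2b4 (adjusted p = 0.000189) and 0.68 for Ryr3 (adjusted p = 0.000157), and 6.21% of all genes tested were called. Ryr2 did not pass in edgeR (adjusted p = 0.0807) and passed in DESeq2 (adjusted p = 0.0401) with a difference below 20%. Ryr1 gave a fold change of 0.06 (adjusted p = 0.932) in edgeR.

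Other genes of calcium handling were taken from 11 lists of 56 genes, all found in the table, of which 41 were tested. Of these, 3 were higher in dorsal and 2 in ventral MEC and 36 were not called, which is 12.2% called against 3.6% of all genes tested. The lists were chosen with earlier results of these data known, so no excess over all genes can be read from these shares. The median log2 ratio of ventral to dorsal FPKM was -0.04 over the list and -0.01 over all genes tested. The 5 genes called belonged to 3 of the lists, those of the potassium-dependent and mitochondrial exchangers, the ryanodine receptor partners and the cytosolic buffers.

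Slc24a2, which encodes the potassium-dependent sodium/calcium exchanger NCKX2 of neurons, was more abundant than any NCX gene. It stood at 153 FPKM in D1, 165 in V1, 154 in D2 and 178 in V2, against 79.2 in D3, 106 in V3, 104 in D4 and 98.8 in V4. The regions did not overlap, and the log2 ratio was -0.74 (limma adjusted p = 0.00261). It was called without any 1 of the 8 libraries. The summed FPKM of its list lay between 189.7 and 215 in dorsal and between 119.8 and 148 in ventral libraries, whereas that of the NCX genes overlapped.

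The cytosolic buffers, proteins that bind calcium without pumping it, differed in both directions. Pvalb, the parvalbumin gene of fast-spiking interneurons, was higher in dorsal MEC, with 12.8 to 17.9 FPKM against 5.29 to 7.57 FPKM (log2 ratio -1.24, limma adjusted p = 0.000942). Calb2, the calretinin gene, was higher in ventral MEC, with 2.72 to 3.37 FPKM against 0.590 to 0.935 FPKM (log2 ratio 2.01, limma adjusted p = 0.000408). Both were called without any 1 of the 8 libraries. Calb1, the calbindin gene, had 4.44 to 4.80 FPKM in dorsal and 6.08 to 10.7 FPKM in ventral libraries (log2 ratio 0.78, limma adjusted p = 0.0306), and leaving out a library kept its call in 3 of 8 fits.

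Homer1, a scaffold that links glutamate receptors to calcium stores, was higher in dorsal MEC, with 34.4 to 48.0 FPKM against 24.2 to 31.3 FPKM (log2 ratio -0.50, limma adjusted p = 0.0403). Leaving out a library kept its call in 2 of 8 fits.

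In 8 of the 11 lists limma called no gene, and of 1 of these, the phospholamban family, it tested 0 genes. Atp2a2, the SERCA2 pump that fills the endoplasmic reticulum, was the most abundant calcium pump measured, with 258 ± 13.0 FPKM in dorsal and 215 ± 9.48 FPKM in ventral MEC (SD, n = 4 each), without overlap, and missed the threshold (log2 ratio -0.26, limma adjusted p = 0.0595). Its difference lay just under the 20% limit as well, so that edgeR did not call it either (adjusted p = 0.0139). Itpr1, the main inositol trisphosphate receptor of neurons and the other release channel of the store, had 36.0 ± 0.498 and 32.8 ± 1.65 FPKM in dorsal and ventral MEC, without overlap (adjusted p = 0.284 in limma). The summed FPKM of the mitochondrial uniporter list did not overlap between the regions either (132.5 to 138 in dorsal and 117 to 131 in ventral libraries), and Micu3 was its most abundant gene (72.3 ± 3.24 and 63.4 ± 7.86 FPKM, adjusted p = 0.326 in limma).

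The remaining lists overlapped in summed FPKM. Among their genes were Stim1 for store-operated entry (8.26 ± 1.15 and 7.91 ± 1.03 FPKM in dorsal and ventral MEC), Nptn for the PMCA chaperones (224 ± 21.97 and 201 ± 18.6 FPKM), Fkbp1a for the ryanodine receptor partners (207 ± 16.8 and 216 ± 21.1 FPKM) and Canx for the lumenal chaperones (125 ± 7.43 and 127 ± 4.65 FPKM). None of these was called. Neuroplastin, the product of Nptn, forms complexes with PMCA pumps, and its level did not pass the test in either direction (limma adjusted p = 0.491). Pln, which encodes the SERCA inhibitor phospholamban, had a mean of 0.668 FPKM, below the limit of the limma test, and was not called by edgeR (adjusted p = 0.105). On fragment numbers, edgeR called Orai2 (adjusted p = 0.0171) and Jph4 (adjusted p = 0.00901) in addition, both higher in ventral MEC.

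**Figure D4:**
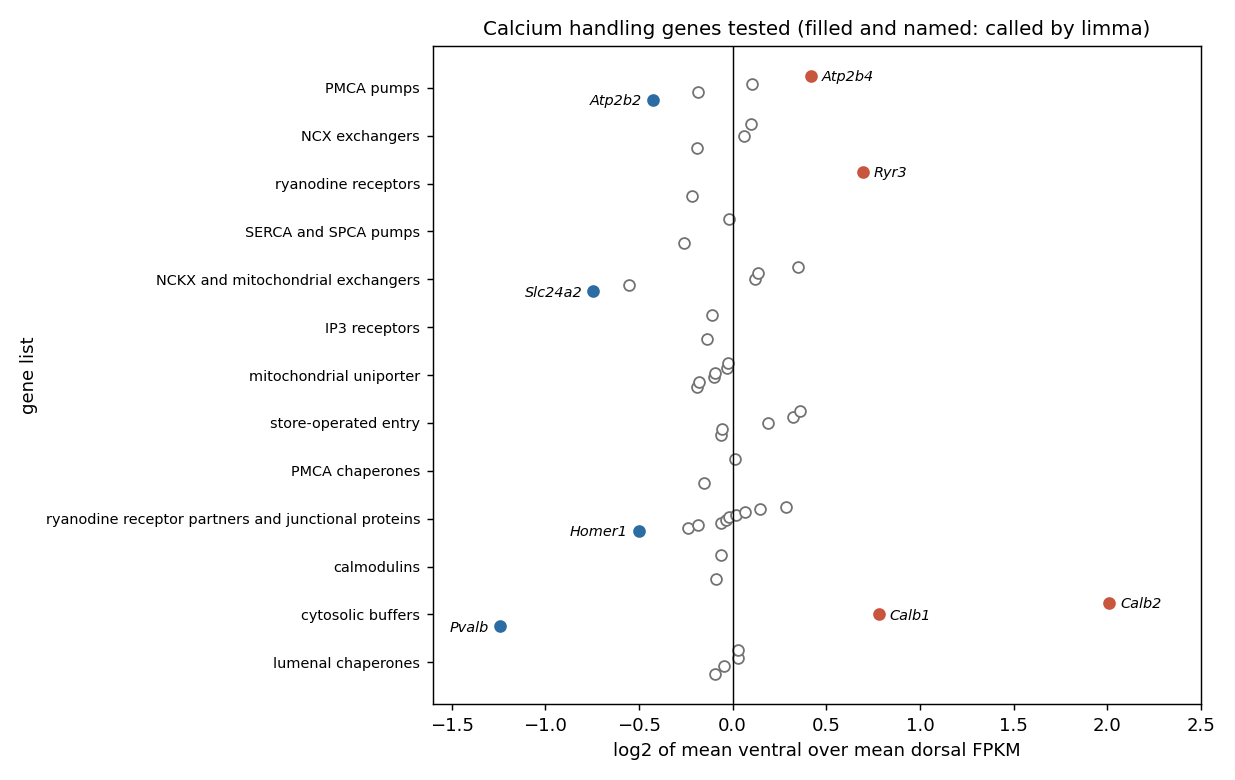
Ratio of ventral to dorsal mean FPKM (horizontal axis, log2 scale) of the members and of the other calcium handling genes tested, by list (vertical axis). Filled and named circles were called by limma, blue higher in dorsal and red higher in ventral MEC, and open circles were not; 36 of the 41 other genes lie among the open circles.

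Markers of several cell types moved with the regions, and the calls given here are those of limma, which called 3.6% of all genes tested. All 5 oligodendrocyte markers (Mbp, Mog, Mag, Mobp and Cnp) were called higher in dorsal MEC, and their summed FPKM lay between 552 and 746 in dorsal and between 303 and 399 in ventral libraries. All 4 genes of the CA1 and subiculum list (Fibcd1, Mpped1, Fn1 and Nts) were called higher in ventral MEC, with a sum of 45.1 to 52.4 FPKM in dorsal and 68.8 to 75.3 FPKM in ventral libraries. Most of this sum came from Mpped1 (37.2 ± 2.28 FPKM in dorsal and 48.5 ± 2.55 FPKM in ventral MEC, SD), while Fibcd1 stood at 0.641 and 2.52 FPKM. The call of Fn1 (adjusted p = 0.0438 in limma) held in 1 of 8 fits without a library, and Nts is also expressed by deep-layer cells of MEC. Of the leptomeningeal list, Dcn was called higher in ventral MEC, Lum was not called and Col1a1 was below the limit of FPKM 1, and the sum lay between 23.7 and 32.6 FPKM in dorsal and between 45.3 and 59.6 FPKM in ventral libraries. Most of the leptomeningeal sum came from Dcn (24.3 ± 4.43 FPKM in dorsal and 48.4 ± 6.49 FPKM in ventral MEC, SD). The part of these cell types and tissues in the differences of Atp2b2, Atp2b4, Ryr3 and Slc24a2 was not tested.

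Some neuronal markers moved with the regions as well. None of the 3 GABAergic markers was called (summed FPKM 128 to 132 in dorsal and 124 to 137 in ventral libraries), and of the 4 glutamatergic markers Slc17a6 alone was called, higher in dorsal MEC (sum 528 to 676 and 546 to 707 FPKM). Of the parvalbumin list, Pvalb was called higher in dorsal and Tac1 higher in ventral MEC (sum 50.5 to 57.0 and 38.8 to 46.6 FPKM). Most of that sum came from Kcnc1 (34.7 ± 1.81 FPKM in dorsal and 27.7 ± 3.76 FPKM in ventral MEC, SD). Kcnc1 was not called by limma (adjusted p = 0.0931) or by edgeR (adjusted p = 0.551). Of the layer II list, Wfs1 was called higher in dorsal and Calb1 higher in ventral MEC (sum 107 to 127 and 90.4 to 105 FPKM). Most of the layer II sum came from Wfs1 (76.6 ± 9.09 FPKM in dorsal and 52.5 ± 4.45 FPKM in ventral MEC, SD). Reln (31.7 and 35.8 FPKM) and Lef1 (3.71 and 3.95 FPKM) were not called. The part of these lists in the members' differences was not tested either.

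In the other 10 of the 16 marker lists limma called no gene, while edgeR on fragment numbers called Gfap higher in ventral MEC (adjusted p = 0.0371), and Prox1 (adjusted p = 0.01) and Tnnt2 (adjusted p = 0.0225) higher in dorsal MEC. Few genes of some of these lists passed the limits of the limma test. It took in 0 genes of the skeletal muscle list and 2 of the mural and smooth muscle list. Of the choroid plexus, dentate gyrus, cardiac and Purkinje cell lists it took in 1 gene each. Sums nevertheless differed without overlap for astrocytes (154 to 164 in dorsal and 171 to 185 FPKM in ventral libraries) and microglia (38.5 to 41.7 and 43.1 to 47.6 FPKM). The cardiac list did too (6.44 to 9.74 and 3.88 to 6.36 FPKM), nearly all of it from Tnnt2. The astrocyte gene Aldh1l1 (log2 ratio -0.02) and the microglia genes Aif1 (-0.16) and Tmem119 (-0.01) did not follow their sums. The other genes of both lists had higher means in ventral MEC. Ryr2 and Ryr1 are best known from heart and skeletal muscle, and of the muscle genes listed, Tnnt2 had a mean of 6.25 FPKM, Myh6 of 0.101, Actc1 of 0.00597, Acta1 of 0.904, Myh4 of 0.197 and Ckm of 0.00751 FPKM. The Purkinje cell genes Car8, Pcp2 and Ppp1r17 had means of 3.30, 0.453 and 0.0509 FPKM. The choroid plexus genes Kl, Ttr and Folr1 had means of 1.12, 0.0303 and 0.0106 FPKM.

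**Figure D5:**
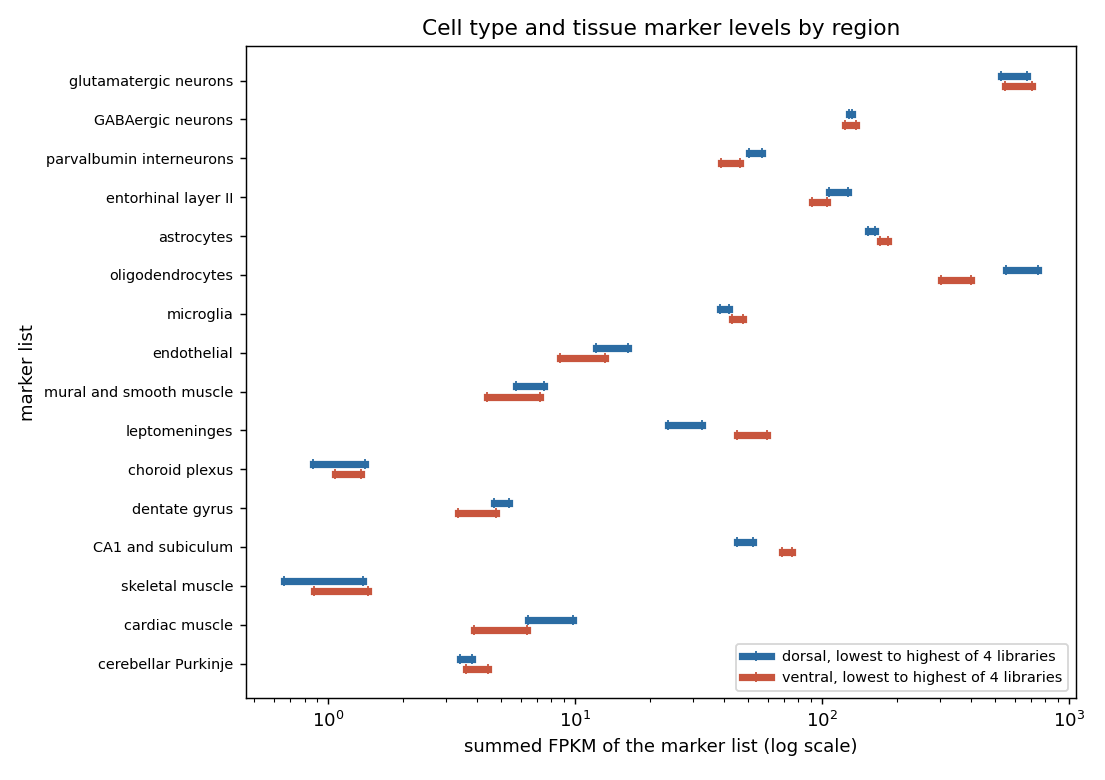
Summed FPKM (horizontal axis, log scale) of each of the 16 marker lists, with a line from the lowest to the highest of the 4 dorsal (blue) and of the 4 ventral (red) libraries. The oligodendrocyte sums lie between 552 and 746 FPKM in dorsal and between 303 and 399 FPKM in ventral libraries. Without overlap, the dorsal sums are also the higher ones for the parvalbumin, layer II and cardiac lists. The ventral sums are the higher ones, without overlap, for the CA1 and subiculum, leptomeningeal, astrocyte and microglia lists.

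By GENCODE M21 on GRCm38, the 3 called genes are Atp2b2 on chromosome 6 (113743831 to 114042613, minus strand), Atp2b4 on chromosome 1 (133699457 to 133801041, minus strand) and Ryr3 on chromosome 2 (112631355 to 113217096, minus strand). In the deposited table the locus of Ryr3 extends further, from 112492964 to 113217096, and takes in Aven.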

How the data were processed

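The authors made the libraries from amplified cDNA, aligned paired-end fragments to GRCm38 (CASAVA 1.8 and TopHat2 2.0.8 in the submitters' processing notes) and ran Cuffdiff, which gave the deposited FPKM of each gene in each library. The deposited long table also holds Cuffdiff's estimated counts of fragments, which were rounded to whole numbers; its conditions carry no region names, and its entries were joined to the FPKM columns by equal FPKM. Of the per-sample values, 2 columns of scaled fragments were not used, and the authors' own fold changes, p-values and q-values were not used.

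The members and gene lists were chosen with earlier results of these data known. Named beside the 10 members are list genes that were called, the most abundant gene of each calcium handling list except the calmodulins, and marker genes that were called or near 0. Aven, and the other genes of the marker lists named beside those near 0 or called, were named after their values were seen. Some listed genes are not reported here and were left out of the lists.

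The main test was limma 3.58.1 (R 4.3.3) with a mean-variance trend on log2(FPKM + 1), on genes that had enough alignments and averaged FPKM 1 or more, with Benjamini-Hochberg adjustment over all 13674 genes. Fold changes on this scale understate those of low genes. Single genes were also compared by an exact permutation test over libraries. edgeR 4.0.16 (quasi-likelihood test, TMM) and DESeq2 1.42.0 on the fragment numbers were added after seeing the data, because the planned condition for them, region names in that table, was not met. The labels tie no library to a group of mice, so regions were compared unpaired, and p-values measure the spread between pools. Intervals and counting errors cover counting of fragments only where so described. The fit was tested on simulated data, where limma recovered 69 of 100 genes changed by 0.6 on the log2 scale and 88 of 100 changed by 1. Of its 165 calls there, 8 were false, and with no gene changed it made 0 calls. Changes smaller than 0.6, the size of most of the members' differences, were not simulated. Alternatives covered the constant, the filter, the scaling, sample weights, thresholds, the regions as headed, the 4 libraries with agreeing headings, and leaving out each library. Plots used matplotlib 3.10.9.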

Additional observations from a re-analysis of the deposited data

Results flagged for a closer look

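Among the 20 groups of 4 libraries tested (10 members in 2 regions), 1 held a library far from the other three. Slc8a2 stood at 9.61 FPKM in the dorsal library V1, against 10.4 to 10.5 FPKM in the other dorsal libraries, a gap of 0.858 of the group's range, which is past the 95% limit of Dixon's test. Chance flags about 1 in 20 groups.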

How the results depend on the processing

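With the regions as headed, no member was called (0 D>V and 0 V>D), nor was any gene of the calcium handling list (0 and 0), and the fold changes were 0.13 for Atp2b1, -0.011 for Atp2b2, -0.029 for Atp2b3, -0.097 for Atp2b4, -0.092 for Slc8a1, -0.041 for Slc8a2, 0.020 for Ryr2 and 0.038 for Ryr3. On the 4 libraries whose heading and assigned region agree, 2 per region, no member and no gene of the list was called either (0 in each direction), with -0.43 for Atp2b2 (adjusted p = 0.300 in limma), 0.32 for Atp2b4 (adjusted p = 0.422), -0.0072 for Slc8a1 and 0.68 for Ryr3 (adjusted p = 0.405). There limma called 0 genes of the whole table, 3 members had an unadjusted p under 0.05 and 1240 genes did, against 721 with the regions as headed, where 1 was called.

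Leaving out 1 library in turn gave fold changes of 0.53 to 0.71 for Ryr3 and 1 to 2 V>D members, and 1 to 2 V>D genes of the calcium handling list. At an adjusted p under 0.01, 1 V>D member and 1 V>D gene of the list passed, given here without a share over all genes. At a mean FPKM of at least 5, 1 V>D gene of the list passed. With that filter limma called 240 genes as D>V and 147 as V>D among the 8709 tested. With edgeR, edgeR without a filter and DESeq2 on fragments, 4 V>D genes of the list passed. The constants 0.1 and 5, the FPKM filters, both rescalings, sample weights and the fragment tests kept the direction and the call of all 9 members tested, with Ryr2 under the 20% limit in each of them.

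Over all genes, limma called 294 D>V and 198 V>D, edgeR 507 and 447, DESeq2 509 and 434, edgeR without a filter 612 and 547, and limma after rescaling to one total 205 and 167; without 1 library limma called 157 to 341 and 91 to 191. The causes of these changes were not tested. No paired analysis was possible because the labels tie no library to a group of mice. Ryr1 was left out of the limma test, with too few alignments and a mean under FPKM 1.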
